A study of Homo sapiens with 8 samples.

Results

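In AIRE-Tet cells the zinc finger gene clusters on the short arm of human chromosome 19 held fewer open sites per Mb than long-arm clusters compared below. The main effect of AIRE induction called 24 of their windows lower (5.93%) and 0 higher, against 6.17% and 1.27% of all windows. That count, and the absence of higher windows, depended on single libraries. The clusters were taken by position alone, as every window of the deposited table that starts in 1 of 3 intervals of chromosome 19 (hg19). These run from 8.9 to 10 Mb and from 11.6 to 12.7 Mb, both in 19p13.2, and from 19.7 to 24.3 Mb, mostly in 19p12. That gave 405 of the 256141 windows in the table: 151 in the distal 19p13.2 interval, 166 in the proximal 19p13.2 interval and 88 in the 19p12 interval. Values given for 19p12 are for that whole interval, which is not all within that band. Windows are 150 bp wide and start every 50 bp, so that neighbors share fragments. Merging those separated by 100 bp or less gave 61 open regions of the 35741 in the table, with 17, 24 and 20 in the intervals in the same order.

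Open chromatin was profiled by FAIRE-seq, which sequences the DNA left in the aqueous phase when fixed chromatin is extracted with phenol and chloroform, and so enriches for DNA poorly held by nucleosomes. AIRE-Tet is a Tet-On Advanced HEK293 line, of human embryonic kidney origin, in which doxycycline switches on AIRE, a transcription regulator known from the thymus. All 4 groups, each of 2 biological replicates, are this same line with the inducible AIRE transgene: Control was untreated, Dox received 1.5 µM doxycycline, Etop received 2 µM etoposide for 24 h, and DoxEtop received that etoposide after 24 h of doxycycline. Etoposide traps topoisomerase II on DNA and leaves breaks. Doxycycline without the transgene was not analysed here, so the drug and AIRE cannot be told apart, and "AIRE induction" stands for both. The line is not a thymic cell, the sources used here do not say whether it is 1 clone, and windows carry no gene names by which its identity could be checked.

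Zinc finger genes of this kind encode DNA-binding proteins, most with a KRAB domain, which recruits the corepressor TRIM28 and through it SETDB1, an enzyme that places the repressive mark H3K9me3. Many of these proteins bind transposable elements and keep them silent. The genes arose by tandem duplication, lie side by side, and often carry H3K9me3 over their own last exons while their promoters stay active. The 19p12 cluster lies next to the centromere and expanded mostly in primates. For orientation by gene order only, the RefSeq table (GRCh38.p14) lists 24 protein-coding genes from ZNF627 to ZNF791, a run known from proximal 19p13.2, and all 24 have ZNF symbols. The run from ZNF317 to ZNF846, known from distal 19p13.2, has 12 among 15, including 1 readthrough gene. The run from ZNF101 to ZNF254, known from 19p12, has 37 among 39. Each run was set to begin and end at a ZNF gene, so it need not span its interval, and windows near an interval's ends may lie outside it. No window was assigned to a gene, because that table is of another build than the windows.

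Levels are CPM, the count scaled to a library's TMM-adjusted total over all windows. Before that adjustment the totals were 4489871 to 5305079 counts in the libraries with AIRE induction and 4568818 to 8275911 in the others. The intervals took 0.15% to 0.17% of these totals. Counts printed below for single libraries are not scaled, so they differ between the arms partly by depth. A member window held a median of 16 to 32 counts per library, and between 0 and 84. A count of 16 has an exact 95% Poisson interval of 9.15 to 26, which covers counting error only, so a change of the size of that interval in 1 library is not detectable at this depth. The table holds only windows with at least 111 counts over the 8 libraries, so sites below that level were not analysed here. Near-identical gene copies can share reads, and how reads with several possible places were treated is not given in the sources used here.

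The intervals differed in how much open chromatin they held. The proximal 19p13.2 interval had 21.8 regions per Mb and the distal one 15.5, against 4.35 in 19p12. These regions covered 1%, 0.877% and 0.141% of the sequence. For comparison, an interval of zinc finger genes on the long arm in 19q13.12 (36.5 to 38.5 Mb) had 102 regions per Mb and one in 19q13.31 (44.3 to 45 Mb) had 134. A pair of intervals in 19q13.4 (52.4 to 54.1 Mb and 56 to 59 Mb) had 28.7. These densities are descriptions of the deposited windows, and no test of their difference was made. A density over the whole genome was not computed, so the intervals are not placed against it.

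Inside the 19p12 interval the open regions lay mostly at the distal edge. Of its 20 regions, 11 with 70 of the 88 windows started below 20 Mb, and the other 9 regions with 18 windows were spread over the remaining part. Values given for 19p12 therefore come mostly from that edge, and the band itself may hold few of these windows. No window lay in the 1.13 Mb between 19976750 and 21106001, in the 1.74 Mb between 21688800 and 23433101 or in the 0.783 Mb between 23433350 and 24216251. The regions there were small, and the last of them, from 24216251 to 24216400, was a single window. In the proximal 19p13.2 interval the widest empty stretch was 0.326 Mb, between 11925250 and 12251051, and in the distal interval it was 0.243 Mb, between 8943750 and 9186301.

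**Figure D1:**
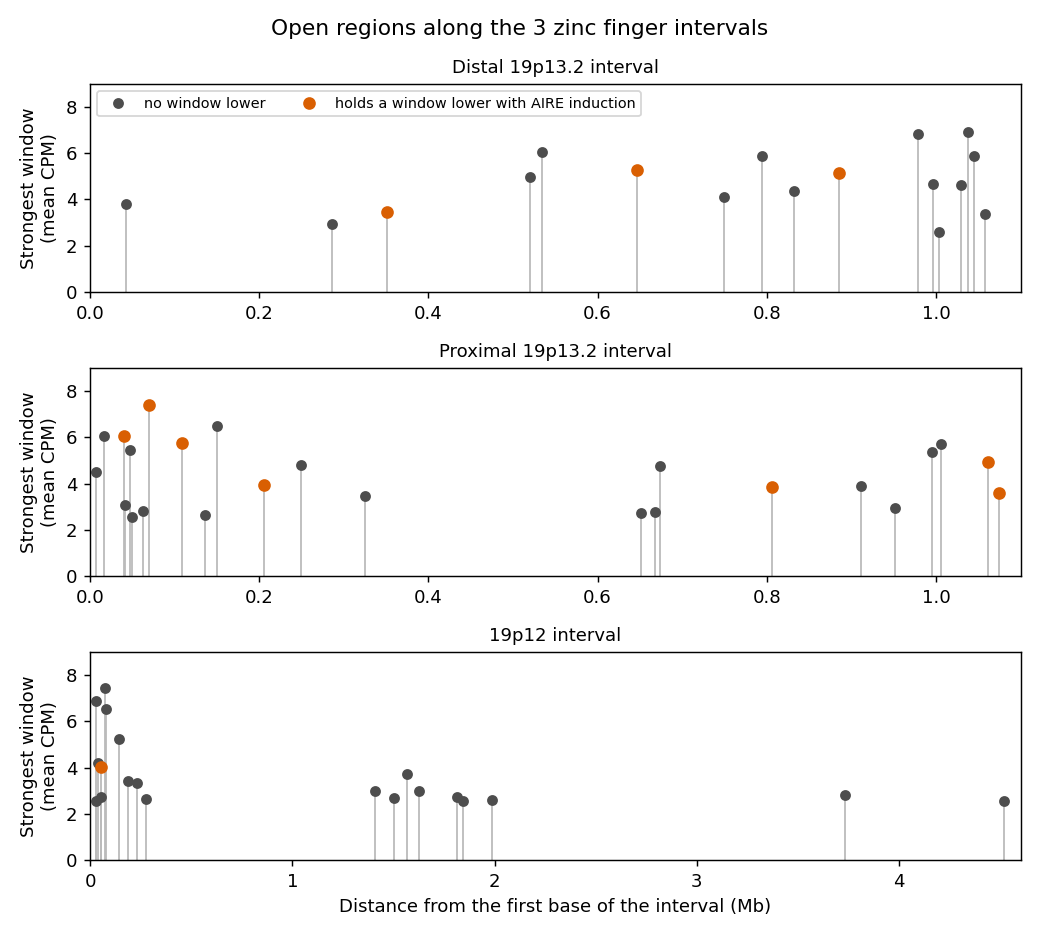
Strongest window of each of the 61 open regions (mean CPM over 8 libraries, vertical axis) against distance from the first base of its interval (Mb, horizontal axis). Orange points are the 11 regions that hold a window called lower with AIRE induction, 7 of them in the proximal 19p13.2 interval, and most points of the 19p12 interval stand at its distal edge.

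No member window was among the strongest of the table. The median level was 3.56 CPM over the 405 windows, against 3.42 over all windows. The highest mean was 7.44 CPM, which 3.13% of the table's windows reached, and 0 member windows exceeded 10 CPM, against 0.631% of all windows. That highest window started at 19774501, in the region from 19774051 to 19774950. Its levels were 9.99 and 5.99 CPM in Control, 6.17 and 5.70 in Etop, 8.39 and 7.94 in Dox, and 8.58 and 6.73 in DoxEtop. The groups overlapped, and its log2 fold change with AIRE induction was 0.18 (edgeR adjusted p = 0.697). In the proximal 19p13.2 interval the strongest window, at 11670051, averaged 7.38 CPM, and in the distal interval that at 9938551 averaged 6.91 CPM. The strongest windows of the 3 strongest regions of each interval, 1 per region and 9 in all, had log2 fold changes of -0.35 to 0.55, and none was called with AIRE induction (edgeR adjusted p = 0.227 to 0.909).

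AIRE induction went with lower FAIRE signal at 24 of the 405 windows and with higher signal at 0. Of all windows tested, 6.17% were called lower and 1.27% higher, so the 5.93% of member windows called lower is close to the background. By edgeR's quasi-likelihood F test, 87 member windows (21.5%) had an unadjusted p under 0.05, against 22.6% of all windows. DESeq2 called 20 windows, all of them among the 24, and limma-voom called 0. Of all windows DESeq2 called 6.34% (5.26% lower) and limma-voom 0.335%. The median log2 fold change of the 405 windows was -0.02, against 0.04 over the table and -0.12 over the rest of chromosome 19. Of the rest of chromosome 19, 10.1% of windows were called lower. In 19q13.12, 19q13.31 and 19q13.4 the shares were 18.5%, 26.6% and 10.3%, and the medians -0.35, -0.64 and 0.02.

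The count depended on single libraries. It was 5 without Control replicate 2, 8 without Dox replicate 2, 10 without DoxEtop replicate 1 and 14 without Etop replicate 1. All of these calls were among the 24. Without Control replicate 1 it was 37, of which 30 were lower and 7 higher, and 23 of the 24 were kept. Without Dox replicate 1 or Etop replicate 2, 1 window was called higher in each fit. The share of the whole table called lower moved with these fits, from 2.59% without Control replicate 2 to 7.49% without Control replicate 1.

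The 24 windows were not spread evenly. The proximal 19p13.2 interval held 16 of them, which is 9.64% of its windows, the distal interval 6 (3.97%) and 19p12 2 (2.27%). The median log2 fold change was -0.15 in the proximal interval, 0.07 in the distal interval and 0.04 in 19p12. Whether the intervals differ was not tested. The 4 induced libraries all lay below the 4 others at 41 member windows (10.1%, against 7.49% of all windows) and all above them at 10 (2.47%, against 4.98%). Of those 41 windows 28 were in the proximal interval (16.9% of its windows), 10 in the distal interval (6.62%) and 3 in 19p12 (3.41%). The share with all induced libraries below the others was 11% over the rest of chromosome 19. It was 18.9% in 19q13.12, 28.1% in 19q13.31 and 12.5% in 19q13.4, so the members' 10.1% was below each of these.

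The same order showed in single libraries. The median level of the proximal 19p13.2 windows, as log2 relative to the mean of the 8 libraries, was 0.25 and 0.16 in Control and 0.05 and 0.15 in Etop. It was -0.15 and -0.05 in Dox and -0.04 and 0.04 in DoxEtop. The 4 induced libraries averaged -0.05 ± 0.08 and the 4 others 0.15 ± 0.08 (SD, n = 4 each). Every induced library was below every other library. In the distal interval the averages were 0.02 ± 0.03 with induction and 0.02 ± 0.09 without, and in 19p12 they were 0.06 ± 0.09 and 0.08 ± 0.09. The arms overlapped in both. Over all windows of the table they were 0.03 ± 0.004 and 0.03 ± 0.01. The order seen in the proximal interval was not particular to it: the arms were also fully separate over the rest of chromosome 19 (difference -0.14), in 19q13.12 (-0.35) and in 19q13.31 (-0.65), against -0.20 in the proximal interval.

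**Figure D2:**
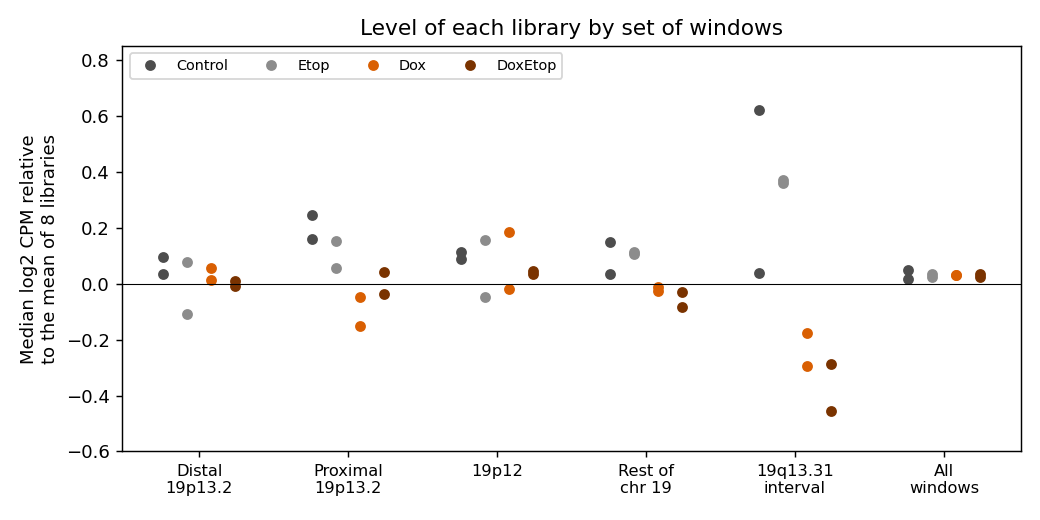
Median log2 CPM of each library relative to the mean of the 8 libraries (vertical axis) for 6 sets of windows (horizontal axis), 1 point per library, colored by group. The induced libraries (orange and brown) lie at -0.15 to 0.04 in the proximal 19p13.2 interval, below the other libraries at 0.05 to 0.25, while both kinds overlap in the distal interval and in 19p12.

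Counted as regions, 11 of the 61 (18%) held a window called lower, against 16.2% of all regions. With Simes' p per region, 6 of the 61 were lower and 0 higher, which is 9.84% against 12.9% lower and 1.42% higher in the table. Of these 6 regions, 5 were in the proximal 19p13.2 interval and 1 in the distal interval. The 11 regions are described next. For this comparison the naming rule took only those from 11639501 to 11640250 and from 12674901 to 12675250, and the others are described after their values were seen.

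The lowest value was at the window from 12662301 to 12662450, the last of the region from 12661851 to 12662450 in proximal 19p13.2. It had 25 and 48 counts in Control and 35 and 26 in Etop, against 7 and 5 in Dox and 2 and 7 in DoxEtop. The mean was 1.05 ± 0.467 CPM with induction and 5.23 ± 1.73 CPM without (SD, n = 4 each). Its log2 fold change was -2.29 (SE 0.43, edgeR adjusted p = 0.000207), and the arms did not overlap.

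The loss covered only 1 end of that region. The log2 fold change was 0.46 at its first window and 0.30 at its strongest window, which starts at 12662051, and then fell along the next windows to -0.31, -0.60, -1.15 and -2.29. The strongest window averaged 2.30 CPM in Control, 6.94 in Etop, 4.51 in Dox and 6.05 in DoxEtop. Only the last 2 of the 10 windows were called lower.

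In the region from 11805501 to 11806050, also in proximal 19p13.2, 5 of 9 windows were lower, the most of any member region. At 11805851 there were 43 and 52 counts in Control and 39 and 14 in Etop, against 4 in each Dox library and 5 and 10 in DoxEtop. Its mean was 1.14 ± 0.564 CPM with induction and 5.41 ± 1.93 CPM without (SD, n = 4 each), and AIRE induction gave a log2 difference of -2.22 (SE 0.41), edgeR adjusted p = 0.000186. This region's strongest window was itself called, with a log2 fold change of -1.96. Its first window, at 11805501, had 0.54 (edgeR adjusted p = 0.45), so here too 1 end did not follow the rest. DoxEtop replicate 1 had 0 counts at the windows starting at 11805651 and 11805701, where DoxEtop replicate 2 had 23 and 16.

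The next lowest region by its best window was that from 12405601 to 12406000. Its first window had 26 and 24 counts in Control, 48 and 19 in Etop, 9 and 6 in Dox, and 4 and 5 in DoxEtop, and the arms did not overlap. The log2 fold change was -1.86 (SE 0.44, edgeR adjusted p = 0.00335). The window at 12405601 was the only 1 of 6 called there, and the strongest window had -0.72 (edgeR adjusted p = 0.215). These 3 windows, together with those at 11805751 and 11805801, were the 5 of the 24 that remained called whichever library was left out. The windows at 12405601 and 12662301 were not among those selected alike in both arms: their summed count reached 129, the minimum of that selection, as deposited but not with the arms exchanged. In that selection the region from 12661851 to 12662450 kept 1 call, at -1.15, and the region from 12405601 to 12406000 had none.

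At the proximal end of the interval, 3 of the 5 windows of the region from 12674901 to 12675250 were lower, including its strongest. That window, at 12675051, averaged 2.02 ± 0.583 CPM with induction and 5.20 ± 1.44 CPM without (SD, n = 4 each), and its log2 fold change was -1.33 (SE 0.37, edgeR adjusted p = 0.0145). In the region from 11639501 to 11640250, 3 of 13 windows were lower, and replicates lay close together. At 11640001 the levels were 6.62 and 6.59 CPM in Control, 5.17 and 5.26 in Etop, 2.86 and 2.65 in Dox, and 2.24 and 2.57 in DoxEtop. The log2 fold change was -1.19 (SE 0.32, edgeR adjusted p = 0.013). At the other side of this 750 bp region the window starting at 11639701 averaged 5.41 ± 1.25 CPM with induction and 3.27 ± 0.497 without, and its log2 fold change of 0.70 was not called (edgeR adjusted p = 0.172). By mean level the signal with induction was highest at 11639701 and without induction at 11639951. Whether that position differed between the arms was not tested.

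The regions from 11669851 to 11670350 and from 11708001 to 11708700 each had 1 lower window, the last of 8 and the first of 12, with log2 fold changes of -1.14 and -1.42. Their strongest windows had -0.30 and 0.04. In the distal interval, the region from 9250951 to 9251300 had 3 lower windows with the lowest at -1.52. DoxEtop replicate 2 had 18 counts at its first window against 1 in DoxEtop replicate 1, and the arms overlapped. The last window of the region from 9546001 to 9546500 had -1.46, with 4 and 2 counts in DoxEtop, 12 in each Dox library and 11 in Etop replicate 2. In the region from 9785451 to 9786050, 2 windows were lower, with the lowest at -1.17. In the 19p12 interval the only called windows were the last 2 of the region from 19754301 to 19755000, in its distal edge below 20 Mb. The lowest was at -1.49, and the region's strongest window had 0.52. The windows at 9546351, 11708001 and 19754851 were not among those selected alike in both arms. In that selection the regions starting at 9546001 and 11708001 had no call, and the region starting at 19754301 kept 1, at -1.20.

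**Figure D3:**
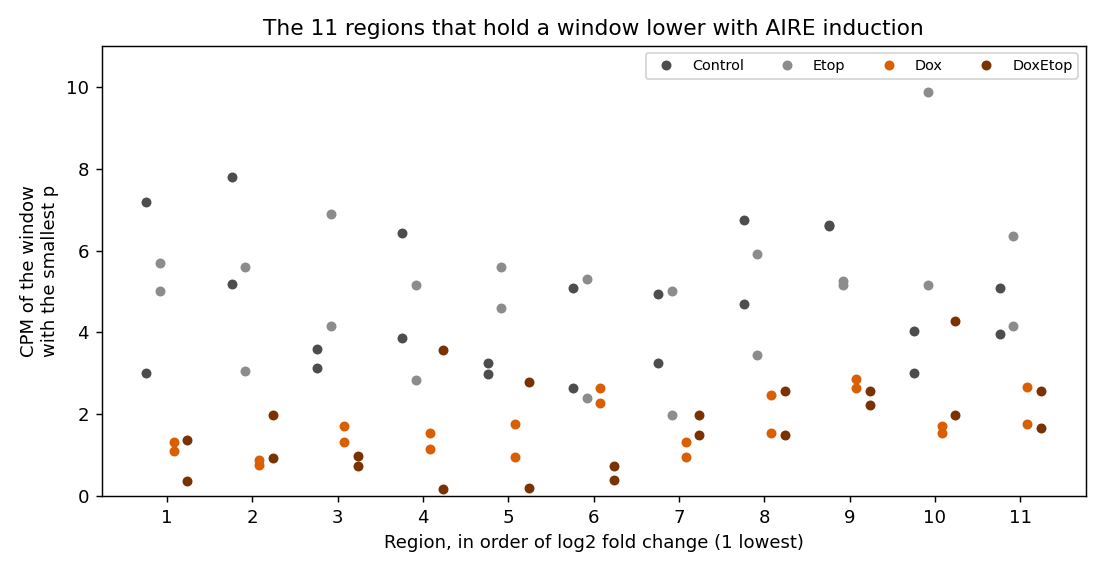
CPM per library (vertical axis) at the window with the smallest p in each of the 11 regions that hold a window called lower, in order of log2 fold change from -2.29 to -1.14 (horizontal axis), 1 point per library, colored by group. Induced libraries (orange and brown) lie below the others in 7 regions, and the arms overlap in the other 4.

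In 8 of the 11 regions the strongest window was not called and all called windows lay on 1 side of it, and 8 of the 11 also held a window with a log2 fold change above 0. Over the table, 3978 regions of 5 or more windows held a lower window, and the strongest was not called in 70.7% of them, against 72.7% of these 11, which is near the background. Their share with a window above 0 was 57.7%, against 72.7%. The median difference between the highest and lowest log2 fold change within a region of 5 or more windows was 0.996 in the 40 member regions and 0.965 in all 20166. The end windows had a lower level, with a median of 2.97 CPM against 4.05 for inner windows, and its part in the calls was not tested. Of the 80 end windows 11.2% were lower, and of the 284 inner windows 5.28%, against 7.53% and 5.1% over the table.

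**Figure D4:**
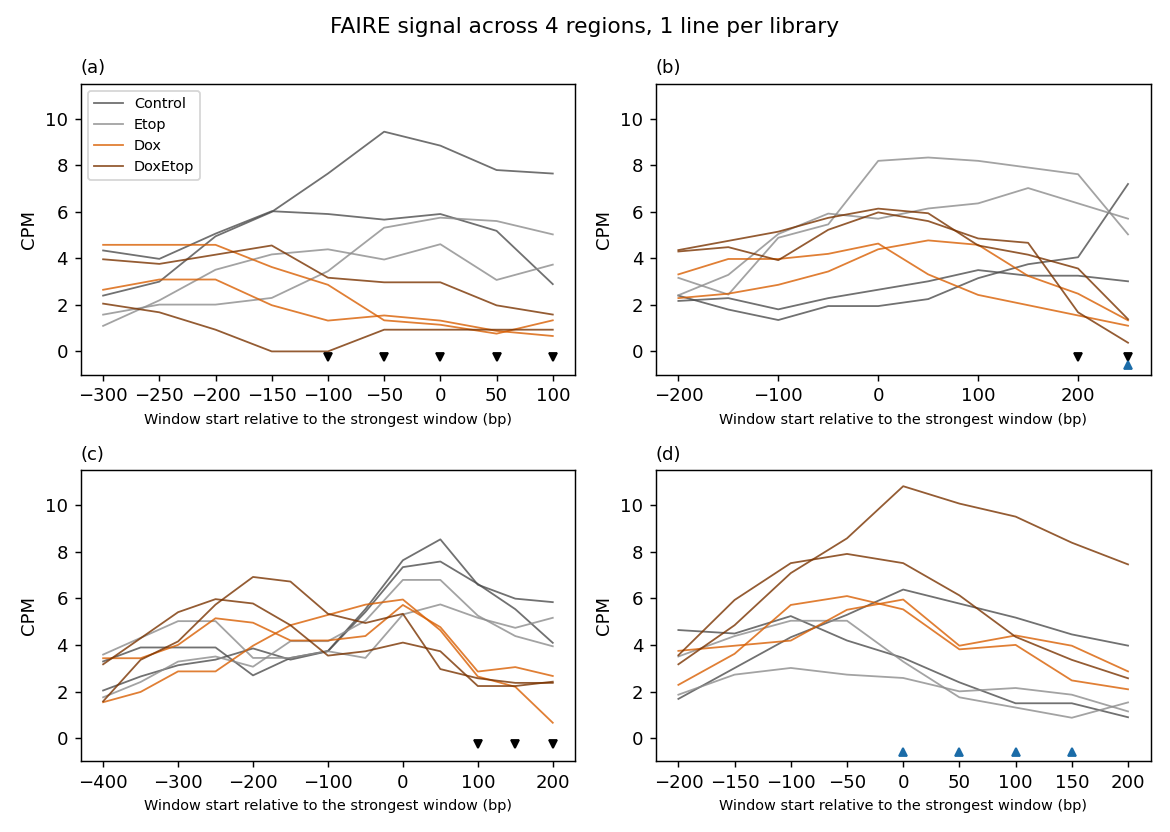
CPM of each library (vertical axis) at the windows of 4 proximal 19p13.2 regions against the distance of each window from the strongest one (bp, horizontal axis), for the regions starting at (a) 11805501, (b) 12661851, (c) 11639501 and (d) 12606051. Black triangles mark windows called lower in the AIRE main effect and blue triangles windows called in DoxEtop vs Etop. In (b) and (c) the induced libraries drop below the others only toward the right end, and in (d) both DoxEtop libraries lie above both Etop libraries.

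AIRE induction without etoposide (Dox vs Control) went with lower signal at 3 member windows and higher signal at 0. Of all windows tested, 0.864% were called, 0.848% lower and 0.0156% higher, and 0.741% of members were lower. All 3 were neighbors in the region from 11805501 to 11806050, starting at 11805751, 11805801 and 11805851, with log2 fold changes of -2.37, -2.56 and -2.95 (edgeR adjusted p = 0.0147, 0.00892 and 0.00707, n = 2 each). At 11805851 Control had a level of 6.48 ± 1.85 CPM and Dox one of 0.822 ± 0.0844 CPM (SD, n = 2 each). By edgeR 48 member windows had an unadjusted p under 0.05. DESeq2 and limma-voom called 0, with 25 and 24 windows at an unadjusted p under 0.05. The count was 5 without Control replicate 1, and 0 without Control replicate 2, Dox replicate 1 or Dox replicate 2, where 1 library stood for its group and was assumed to vary like the others. Those last 3 fits called 0% of all windows, the fit without Control replicate 1 called 1.6% and DESeq2 0.0621%, so the loss of calls was of the whole table.

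AIRE induction in etoposide-treated cells (DoxEtop vs Etop) changed 7 member windows, 3 lower and 4 higher. That is 0.741% and 0.988% of members, against 2.88% called of all windows tested, 2.43% lower and 0.45% higher. The lower windows started at 9546351, 12405601 and 12662301, 1 in each of 3 regions named above, with log2 fold changes of -2.74, -2.66 and -2.59 (edgeR adjusted p = 0.02, 0.0104 and 0.0141, n = 2 each). The levels at 12662301 were 0.879 ± 0.715 CPM in DoxEtop and 5.36 ± 0.477 in Etop (SD, n = 2 each).

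The 4 higher windows were neighbors in 1 region, from 12606051 to 12606600. At 12606301 the counts were 54 and 31 in DoxEtop and 14 and 8 in Etop, with 48 and 16 in Control and 20 and 18 in Dox. The level was 8.10 ± 2.79 CPM in DoxEtop and 1.88 ± 0.181 in Etop (SD, n = 2 each), which gave a log2 fold change of 2.08 (edgeR adjusted p = 0.00952). In cells without etoposide the same window had a log2 fold change of -0.09 (edgeR adjusted p = 0.963). The difference between these effects was 2.18 with an unadjusted p of 0.00197 in the interaction term, and its adjusted p was 1. Control replicate 1, at 5.78 CPM, was above both Dox libraries at this window, and Control replicate 2, at 2.40 CPM, below them. Without Control replicate 1 the AIRE main effect called 5 windows of this region higher, with log2 fold changes up to 1.75. The region's strongest window was not called with all libraries (log2 fold change 0.90, edgeR adjusted p = 0.0511).

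The count of 7 in DoxEtop vs Etop was 17 without Etop replicate 2 (9 lower and 8 higher), 1 without DoxEtop replicate 1 and 0 without Etop replicate 1. Of all windows tested, the same fits called 6.12%, 0.0312% and 0.494%, so the members' counts moved with the whole table. DESeq2 called 2 members and limma-voom 0, against 0.88% and 0.0105% of all windows. In the 332 member windows selected alike in both arms, 4 were called, all of them higher. The 3 lower windows were not in that selection.

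Dox vs Control and DoxEtop vs Etop share no library. Over the 405 windows 160 were below 0 in both, 112 above 0 in both and 133 of opposite sign, so 67.2% had the same sign, as did 67.3% of all windows. The correlation across windows was 0.523, against 0.547 over the table, and windows overlap and share depth. It was 0.641 in the proximal 19p13.2 interval, 0.544 in the distal interval and 0.244 in 19p12. All 24 windows lower in the AIRE main effect were below 0 in both comparisons, which the main effect, averaged from both, favors by construction.

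**Figure D5:**
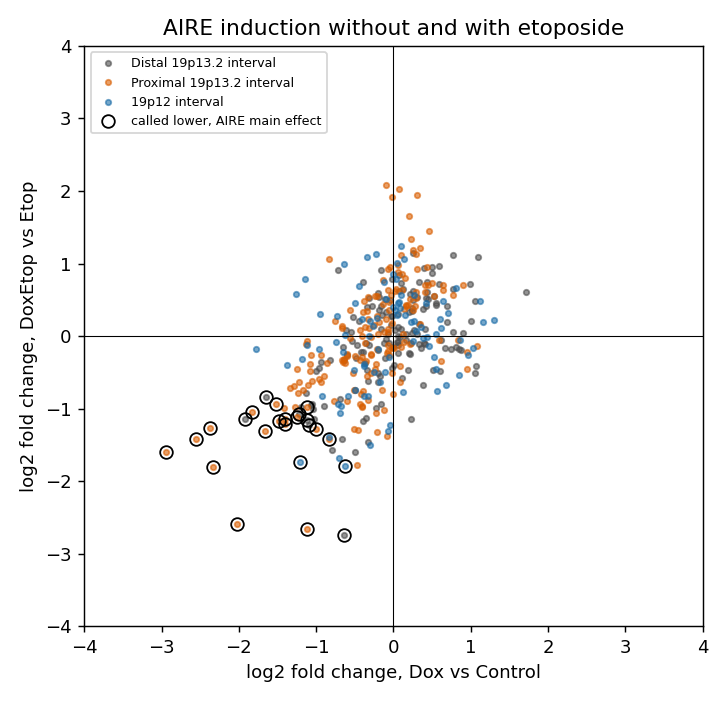
Log2 fold change of the 405 member windows with AIRE induction in cells without etoposide (horizontal axis) and in etoposide-treated cells (vertical axis), colored by interval, with circles around the 24 windows lower in the AIRE main effect. All 24 circles lie at lower left, below 0 on both axes, and a small group of proximal 19p13.2 windows stands near 2 on the vertical axis and near 0 on the horizontal.

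Etoposide changed none of the member windows past the threshold. Over all 8 libraries 0 of 405 were called by edgeR, with 25 (6.17%) at an unadjusted p under 0.05, against 5.83% of all windows, and 0% of the table was called. DESeq2 and limma-voom also called 0 members, with 23 and 29 at an unadjusted p under 0.05. The median log2 fold change was -0.05, and -0.11 in 19p12. Etop vs Control and DoxEtop vs Dox called 0 members each by edgeR, DESeq2 and limma-voom, against 0% of the table by edgeR. By edgeR 21 and 11 windows had an unadjusted p under 0.05, by DESeq2 15 and 6, and by limma-voom 39 and 2. The smallest adjusted p of a member in Etop vs Control was 0.863. The interaction of AIRE induction and etoposide called 0 members by each of the 3 tools, with 13, 6 and 13 windows at an unadjusted p under 0.05 by edgeR, DESeq2 and limma-voom. Its median was 0.30 in the proximal 19p13.2 interval, 0.01 in the distal interval and -0.03 in 19p12.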

How the data were processed

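FAIRE-seq libraries of AIRE-Tet cells, 4 groups of 2, were made from fixed cells with 10% kept as input, and each had 2 sequencing runs, per the labels' protocols. The deposited table holds raw counts per window, 1 column per library. The submitters' processing notes name Trim Galore, Bowtie2, Bowtie and hg19 but no tool version. How windows were chosen and counted, and whether input or duplicates were used, is not given in the sources used here.

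Tests were fitted on all 256141 windows with edgeR 4.0.16 in R 4.3.3 (glmQLFit and glmQLFTest, two-sided, TMM scaling), with Benjamini-Hochberg adjustment over all windows and calls at 0.05. A model with additive terms for AIRE induction and for etoposide gave the main effects, and a model with 1 mean per group gave the other comparisons. The common biological coefficient of variation was 26.3% in the additive model. filterByExpr removed 0 windows. Regions merged windows with gaps of 100 bp or less, and Simes' p was adjusted over all 35741. Levels relative to the mean of the libraries used log2 CPM with a prior count of 2. The SE of a log2 fold change is its size divided by the root of F. The procedure was tested on simulated data, in which windows were drawn independently and with the same spread. Real windows overlap, so that test does not bear on the counts of neighboring windows given here.

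Alternatives were DESeq2 1.42.0, its size factors, limma-voom (limma 3.58.1), loess offsets, a replicate block, leaving out each library, other merging gaps, and windows whose summed count reached 129, the most frequent sum, both as deposited and with the AIRE arms exchanged. Regions were named by their window with the smallest p: up to 12 called lower with arms that do not overlap and up to 8 called higher, both above the median member level, the 3 strongest per interval, and in each other comparison all called regions, or the 5 with the smallest p. The intervals, rules and tests were chosen with earlier results of these data known. Replicates are separate biological samples per the labels.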

Additional observations from a re-analysis of the deposited data

Results flagged for a closer look

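In 30 sets of 4 libraries (an arm with or without induction, for the median levels of the intervals and the windows with the smallest p in the 11 regions), 3 had 1 library far from the other 3, and chance gives about 1 in 20. The median level of all member windows, as log2 relative to the mean of the libraries, was 0.0285 in DoxEtop replicate 2 against -0.0061 to -0.0037 in the other induced libraries. At the window starting at 9785501, DoxEtop replicate 1 had 4.29 CPM against 1.54 to 1.98 in the other induced libraries. At 11805851, DoxEtop replicate 2 had 1.98 CPM against 0.763 to 0.933.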

How the results depend on the processing

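The 24 windows lower with AIRE induction had a log2 fold change below 0 under every alternative in which they were tested. They were chosen as low in the same libraries that the alternatives use, which favors this sign by construction. Of the 24, 18 were among the windows selected alike in both arms. In that selection the regions starting at 9546001, 11708001 and 12405601 had no call. The count was 24 with DESeq2's size factors and without a filter, 23 with loess offsets, 20 with DESeq2 and 17 with windows selected alike. It was 0 with limma-voom (adjusted p = 0.106 to 0.534 for the 24), which called 0.335% of the whole table, and the cause was not tested. Leaving out single libraries gave 5 to 37. For Dox vs Control the count of 3 was 0 with limma-voom and DESeq2, and 0 to 5 with 1 library left out. For DoxEtop vs Etop the count of 7 was 4 with windows selected alike, 2 with DESeq2 and 0 with limma-voom, and 0 to 17 with 1 library left out. For Etop vs Control it was 0 to 1 with 1 library left out, and for the etoposide main effect, DoxEtop vs Dox and the interaction 0 under all alternatives. The 6 lower regions were 6 with merging gaps of 0 bp and 500 bp. With 1 library left out, the median log2 fold change was -0.0953 to -0.0272 for all members, 0.0101 to 0.0849 for the distal interval, -0.2394 to -0.1138 for the proximal interval and -0.0572 to 0.0594 for 19p12. With the replicate number as a block, 24 windows were called, the 23 lower ones and 1 higher in the region from 12606051 to 12606600, and 23 were shared. Same-numbered libraries of different groups correlated in their deviations from group means at -0.0732 to 0.12. Counting error at this depth weakens such correlations, so a pairing by number can be neither shown nor excluded by them. Depth limits all of these, with a median of 16 to 32 counts per window and library.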
